A study of Macaca fuscata with 12 samples.

Results

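Cortex around the left intraparietal sulcus (IPS) was compared with cortex around the left lateral sulcus that holds the secondary somatosensory area (SII) in untrained control macaques (Macaca fuscata), with 3 arrays of each region. These 6 arrays were chosen by their titles and are 6 of the 12 arrays in the series, and all 52766 probe sets other than the array's own controls entered the comparison. The SII arrays came from 1 female, 340F (4 years 6 months), and from 2 males, 347M (5 years 4 months) and 354M (5 years 10 months). The IPS arrays came from the same 347M and 354M and from another male, 358M (3 years 9 months). The 4 control animals were untrained; the other 6 arrays came from the same regions of 4 animals given tool-use training, 2 of which (334M and 348M) gave both regions, and here they serve as further arrays of the same region difference. No array of a control animal enters the trained difference.

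Both regions are parietal cortex. SII, in the lateral sulcus, is a higher tactile area that receives input from primary somatosensory cortex and represents both sides of the body. Cortex along the IPS is association cortex that joins touch, vision and movement of the hand and eyes, and it is known for its part in reaching, grasping and tool use in macaques. Sensory and association areas are both built of layers of glutamatergic and GABAergic neurons with astrocytes, oligodendrocytes, microglia and vessels, so differences between areas are differences of degree in a shared set of genes.

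Every value is on a log scale and centred: each probe set has a median of 0 over the 12 arrays, so values do not rank genes by level. The sources used here do not state the base of the log; base 2 is an inference from how widely they spread, and on it a difference of 1 is a 2-fold difference and the signal limits below hold. Differences are IPS minus SII throughout, with the standard error (SE) of the limma fit over 3 arrays a region. The fit pools 1 spread per probe set or gene over all 12 arrays, so its control and trained SE are the same. P-values are adjusted by Benjamini-Hochberg over all probe sets, or over all genes, unless called unadjusted. Probe sets were sorted by the signal before centring into high (at least 256 on 11 or more arrays), middle (at least 16 on 11 or more arrays), low, and floor (at the array's lowest possible value on some arrays). Cortical markers were present: all 8 measured excitatory neuron markers and all 11 measured GABA neuron markers had a high or middle signal, as did 12 of 13 astrocyte markers, while none of the 3 measured red blood cell genes did.

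Array quality moved with region in part. The actin 3′ probe set minus the actin 5′ probe set, which is larger where RNA is shorter, read 0.25, -1.87 and -1.71 on SII arrays 1 to 3 and 0.02, 0.23 and 0.05 on IPS arrays 1 to 3. Within 347M it was 1.89 higher in IPS, within 354M 1.94 higher, within the trained 348M 2.92 higher, and within the trained 334M 1.96 lower. Hybridisation controls stood at 0.45 on SII array 1 and between -0.11 and -0.02 on the other 5 control arrays. No source used here says whether the 2 regions were hybridised together, so region and hybridisation run cannot be told apart; the p-values below measure only the spread between these samples.

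No probe set passed a false discovery rate of 5% (limma, all 12 arrays, animal as a random block; percent called 0). The smallest adjusted p was 0.0687 over probe sets and 0.127 over the 12058 genes. At an unadjusted p under 0.05, 4035 probe sets (7.65%) stood apart, 1860 higher in IPS (3.52%) and 2175 lower (4.12%); with each animal as a fixed block there were 2611. Over genes the count was 1058 (8.77%), 465 higher (3.86%) and 593 lower (4.92%), and 648 with the fixed block. The arrays of the 2 regions did not overlap for 19.4% of probe sets, 10.7% with IPS above and 8.7% with IPS below. For 3 against 3 arrays, such full separation has an exact p of 0.10, the smallest possible. In the trained animals 7.87% of probe sets did not overlap, and 4.89% had an unadjusted p under 0.05. No single gene below is therefore called different, and each is given by its values.

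The direction depended on the signal. Among the 4481 high signal probe sets all 3 IPS arrays lay above all 3 SII arrays for 28.1% and below for 8.01%, against 14.1% and 10.9% of the 20865 middle signal probe sets. At low signal the shares were 6.44% and 6.2%, and at the floor 3.39% and 8.69%. The median difference was 0.12 at high, 0.05 at middle, 0.00 at low signal and -0.20 at the floor. The floor itself sat at 0, -1.38 and -0.45 on SII arrays 1 to 3, counted from SII array 1. On IPS arrays 1 to 3 it sat at -0.94, -0.84 and -0.87. Values at the floor move with these positions, so the lean of the floor class is no reading of expression. Within single animals the high signal median was 0.15 in 347M, 0.10 in 354M and 0.14 in 334M, but -0.02 in 348M. The median at high signal was thus above 0 in 3 of the 4 animals with both regions.

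**Figure D1:**
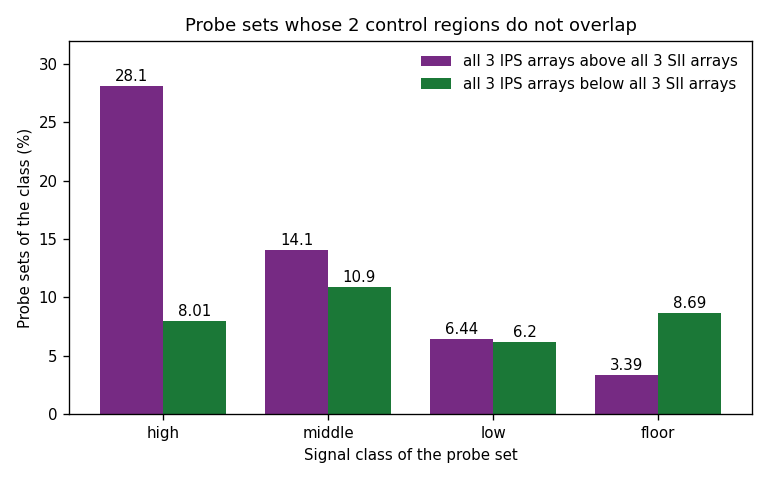
Share of probe sets (y axis, %) in each signal class (x axis) for which all 3 IPS control arrays lie above (purple) or below (green) all 3 SII control arrays. The high signal class leans to IPS, 28.1% against 8.01%. The floor class stands at 3.39% against 8.69%, and its values move with the floor position of each array.

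High signal probe sets mostly kept their sign from animal to animal. Across the high signal probe sets the difference within 347M and that within 354M, which share no array, correlated at r = 0.58 and had the same sign for 72.7%; at middle signal r was 0.26, at low signal 0.06 and at the floor 0.01. These correlations are over probe sets, which are not independent replicates. Of 266 high signal probe sets (5.94%) with an unadjusted p under 0.05 in controls, 256 (96.2%) had the same sign in the trained animals, where 77.3% of all high signal probe sets did. At middle signal 1720 probe sets (8.24%) had such a p, and 1404 of them (81.6%) kept their sign, beside 65.9% of all. Single trained animals split: of the 1720, 80.5% kept their sign within 348M and 53.5% within 334M, the animal whose actin difference ran the other way, and of the 266 it was 91.0% and 74.4%. With the actin difference as a covariate, an alternative added after the values were seen, all 266 and all 1720 kept their sign and 199 and 1162 stayed under an unadjusted p of 0.05. Both sets were chosen by that p on the same arrays, so a kept sign was largely fixed in advance. The part of RNA quality in the result was not tested.

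**Figure D2:**
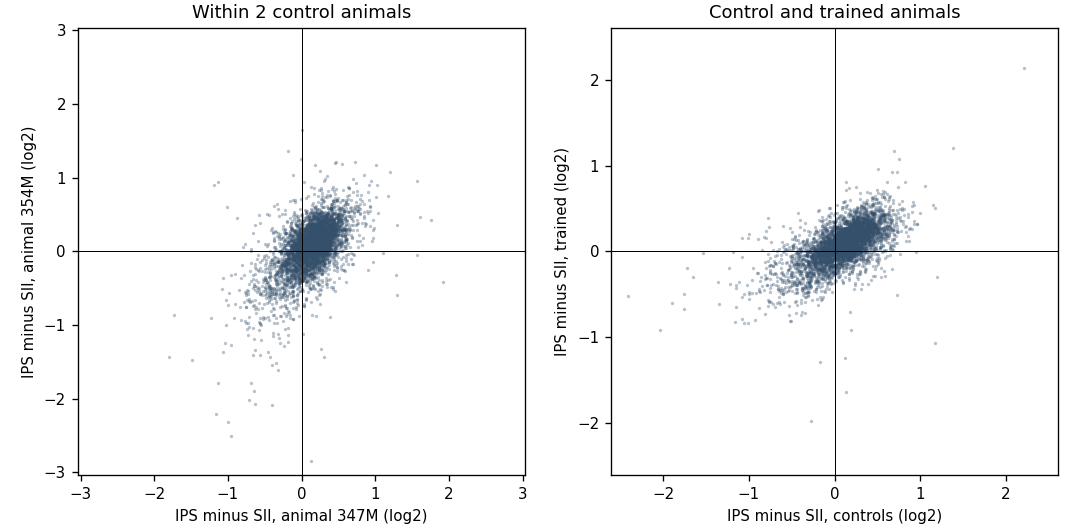
IPS minus SII (log2) for the 4481 high signal probe sets, each point 1 probe set: left, within animal 347M (x) against within 354M (y); right, all control arrays (x) against all trained arrays (y). Both clouds run from lower left to upper right, with r = 0.58 and 0.63.

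The genes named first are the 15 probe sets with the smallest p in each direction among those with a gene symbol, a high or middle signal, regions that do not overlap and a difference of at least 0.58. Since non-overlap was asked for, it is no finding about them. Their adjusted p ran from 0.208 to 0.554 on the IPS-high side and from 0.271 to 0.552 on the IPS-low side. In the trained animals 12 of the 15 IPS-high and 13 of the 15 IPS-low genes had the same sign. Within 348M 27 of the 30 kept their sign, and within 334M 20. All 30 kept direction and an unadjusted p under 0.05 with the actin covariate. They were chosen for a small p on the same arrays, so this was largely fixed in advance and is no sign of stability.

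Among the genes higher in IPS, ITGA11, CD53 and P3H2 encode surface proteins or act on the matrix. ITGA11, the alpha chain of a collagen-binding integrin, read -2.26, -2.43 and -2.37 on the SII arrays and 0.32, 0.79 and 0.29 on the IPS arrays. The difference was 2.82 ± 0.45 (SE; adjusted p = 0.208), and a second probe set of the gene gave 1.31 ± 0.63. In trained animals the same 2 probe sets stood at 1.68 and 1.54, and the first at 2.72 within 334M and 0.95 within 348M. ITGA11 thus lay higher in IPS in both trained animals with both regions. In the 2 such control animals that direction was fixed by the choice. CD53, a tetraspanin of leukocytes, read -0.66, -0.78 and -0.81 in SII and 0.49, 0.48 and 0.52 in IPS, a difference of 1.25 ± 0.30. Its other probe sets gave 1.10 ± 0.27 and 0.85 ± 0.58, and the first was 1.04 ± 0.30 in trained animals. The control values of CD53 had an SD of 0.08 in SII and 0.02 in IPS, and a choice by small p favours such tight groups. The trained values were more spread, with an SD of 0.32 in SII and 0.64 in IPS. The direction was the same in trained animals for 2 of its 3 probe sets, and the third, of low signal, was -0.29 there. P3H2, a prolyl hydroxylase that modifies collagen, was 0.75 ± 0.20 higher, with 0.84 ± 0.51 from its second probe set.

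PEAK1, IKBKE, SOS1, PPIP5K2, PIK3C3 and NSMAF act in signalling. PEAK1, a pseudokinase scaffold of the cytoskeleton, read -1.20, -1.21 and -1.09 in SII and 0.80, 0.39 and 0.24 in IPS. Its difference of 1.65 ± 0.25 (adjusted p = 0.208) was larger than the 0.29 ± 0.25 of the trained animals. IKBKE, a kinase of innate immune signalling, read -0.19, 0.02 and 0.27 in SII and 1.42, 1.52 and 1.53 in IPS; the trained animals went the other way, at -0.34 ± 0.30, and its second, low signal probe set at -0.23 ± 0.57. SOS1, an exchange factor that activates Ras, was 0.96 ± 0.25 higher in its named high signal probe set, while its 5 other probe sets ran from -2.57 to 0.30. PPIP5K2, an inositol pyrophosphate kinase, read -0.93, -0.58 and -0.43 in SII and 0.95, 0.55 and 0.14 in IPS, 1.20 ± 0.33, and its 3 other probe sets gave 0.70, 0.45 and 0.35, all of 1 sign. The lipid kinase PIK3C3 stood at 0.86 ± 0.24, but its other probe sets at 0.44 and -0.80. NSMAF, an adaptor of sphingomyelinase signalling, was 0.89 ± 0.24 higher.

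The other IPS-high genes act in mitochondria, RNA, chromatin, cilia and protein synthesis. MGARP, a mitochondrial protein with a high signal here, read -0.31, -0.40 and -0.59 in SII and 0.54, 0.37 and 0.37 in IPS, 0.86 ± 0.20, and its 3 other probe sets gave 0.47, 0.43 and 0.34. EIF2S1, the alpha subunit of the translation factor that carries initiator tRNA, was 0.99 ± 0.26 higher in 1 probe set and between 0.01 and 0.05 in its 3 others. ZCCHC8, of a nuclear RNA decay complex, stood at 0.91 ± 0.23. SEC11A, a signal peptidase subunit, was at 0.86 ± 0.23, with other probe sets at 0.20 and -0.15, and WDR19, of intraflagellar transport, at 0.83 ± 0.21, with another at 0.26. NSD3, a histone methyltransferase, was 0.81 ± 0.21 higher in its named probe set and -0.90 ± 0.51 in a high signal one. Of 27 other probe sets of these 15 genes, 21 leaned to IPS.

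Among the genes lower in IPS, GTF2F1, CDC5L, SMARCA2 and AHDC1 encode nuclear proteins. GTF2F1, a subunit of the general transcription factor TFIIF, read 1.38, 0.83 and 1.20 in SII and -0.30, -0.38 and -0.59 in IPS, -1.55 ± 0.28 (adjusted p = 0.302), and was -0.95 ± 0.28 in trained animals. CDC5L, a spliceosome protein, read 1.82, 1.37 and 1.63 in SII and -0.59, -0.42 and -0.74 in IPS, -2.18 ± 0.42, with other probe sets at -0.74 and 0.48. SMARCA2, an ATPase of chromatin remodelling, was -2.05 ± 0.38 in a middle signal probe set, but 3 of its 4 other probe sets, all of high signal, lay between 0.30 and 0.60. That the regions of these genes do not overlap was a condition of the choice. Only for GTF2F1, which has 1 probe set, is there no second reading to set beside it. AHDC1, a DNA-binding protein, stood at -3.81 ± 0.80, its second probe set at 0.12 ± 0.77.

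The remaining IPS-low genes act at the membrane, in signalling or at the cytoskeleton, as far as their roles are known. UBASH3B, a phosphatase that damps tyrosine kinase signalling, read 0.56, 0.34 and 0.35 in SII and -2.89, -3.03 and -3.45 in IPS, -3.53 ± 0.62. The trained mean was 0.54 ± 0.62, with 2.37 within 334M and -1.22 within 348M, and its other probe sets in controls were split, at -0.68 and 0.33 with middle signal and -0.43 at the floor. PMEPA1, which restrains TGF-beta signalling, read 0.91, 0.53 and 1.16 in SII and -0.51, -0.45 and -0.16 in IPS, -1.25 ± 0.27. Its 3 other probe sets gave -0.80, -0.22 and -0.17 and the trained animals -0.89 ± 0.27, so PMEPA1 leaned to SII in every reading. FGD5, an exchange factor of endothelial cells, read -1.34 in 340F but 1.13 and 1.09 in the male SII arrays, against -2.10, -2.42 and -2.29 in IPS. That gave -2.59 ± 0.56 (adjusted p = 0.478) with all arrays and -3.38 ± 0.29 (adjusted p = 0.0467) without SII control array 1, the array of the female. FLVCR1, a choline and haem transporter, stood at -4.07 ± 0.83. The T cell surface protein CD6 was at -2.95 ± 0.59, but its other probe sets at -0.23 (middle signal) and 0.19 (floor). NLGN4X, a postsynaptic adhesion protein, was -1.40 ± 0.32 with other probe sets at -0.29 and -0.25. ADD3, which ties actin to spectrin, was -1.35 ± 0.31, but only 3 of its 7 other probe sets were negative. ASB12, TM7SF3, DNAAF5 and LRRC61 ran from -2.07 to -0.86. Another probe set of TM7SF3 gave -0.29, that of DNAAF5 0.55 ± 0.20 with the opposite sign, and those of LRRC61 -0.07, 0.38 and 1.62. Of 29 other probe sets of the 15 genes 15 leaned to SII, and of the 23 with high or middle signal 11 did. For the IPS-high genes 17 of 21 high or middle signal ones leaned to IPS. Over all genes with 2 or more high or middle signal probe sets, 57.4% of the others took the sign of a leading one with an unadjusted p under 0.05. Pairs of such probe sets of any gene shared a sign in 56.5%, so a leading p added little.

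**Figure D3:**
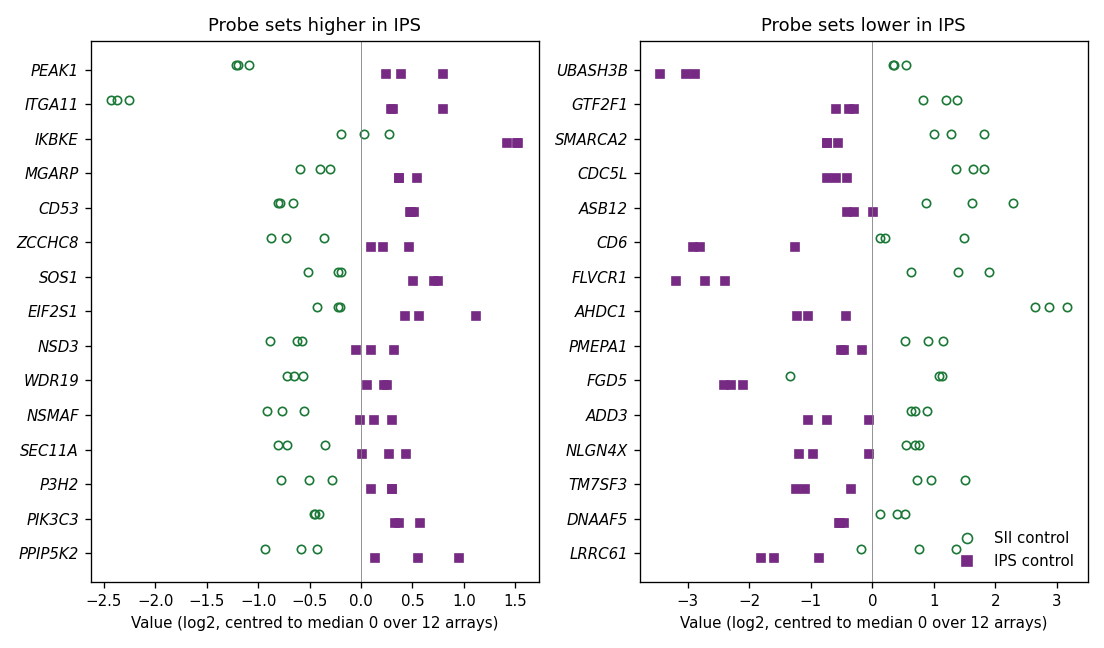
Centred log2 value (x axis) of the named probe set of each of 30 genes on the 3 SII (green circles) and 3 IPS (purple squares) control arrays. Within each gene the regions do not overlap, which was a condition of the choice; FGD5 has 1 SII array, that of 340F, at -1.34, apart from the other two.

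Some genes had similar differences in control and trained animals. Of the high or middle signal probe sets, 1986 (7.84%) had an unadjusted p under 0.05 in controls and 702 (2.77%) in trained animals; 158 had both, and 146 of these had the same sign, 70 higher and 76 lower in IPS. Both comparisons share the pooled spread, so a probe set with a small spread passes more easily in both, and the overlap is not that of independent tests. This selection was made after the values were seen and is a description. By the larger of the 2 p-values it was led by ITGA11, CD53, C1QB, GTF2F1 and PMEPA1. TCF7L2, a transcription factor of Wnt signalling and the only high signal gene among the first 12, read -0.32, -0.25 and -0.28 in SII and 0.33, 0.28 and 0.32 in IPS. It was 0.59 ± 0.18 higher in controls and 0.53 ± 0.18 in trained animals, with no overlap in either. PPP3CB, a catalytic subunit of calcineurin, was 0.82 ± 0.28 and 0.79 ± 0.28 higher, and MBTPS2, a membrane protease, 0.58 ± 0.19 and 0.61 ± 0.19. On the SII side CARMIL3, a regulator of actin capping, was -0.98 ± 0.30 and -1.13 ± 0.30. SEMA4A, a semaphorin, was -0.82 ± 0.27 and -0.78 ± 0.27, and FERMT2, an integrin activator, -0.85 ± 0.23 and -0.68 ± 0.23.

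Gene lists of cell types, layers and pathways were described by gene, as the mean of the probe sets that never reached the floor. The median over all 12058 genes was 0.00, and 49.7% of them lay lower in IPS. Of the 425 distinct list genes measured, 40 had an unadjusted p under 0.05 and lay lower in IPS (9.41%) and 11 lay higher (2.59%), beside 4.92% and 3.86% of all genes; their median was -0.08, and the smallest adjusted p among them 0.276. Of these 51, 42 had the same sign in trained animals, 43 within 348M and 25 within 334M. With the actin covariate 34 stayed under 0.05 and all 51 kept their sign. The 51 were chosen by p on the same arrays, so the sign kept under the covariate was largely fixed in advance. These lists share members and were chosen with earlier results of these data known. In whole tissue, fewer cells of a type and less RNA per cell cannot be told apart.

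Microglia and macrophage genes leaned to SII. Of 17 measured members 16 lay lower in IPS, with a median of -0.40; 3 had an unadjusted p under 0.05, all lower. The median over the list lay between -0.01 and 0.27 on the SII arrays and between -0.29 and -0.20 on the IPS arrays, and 12 of the 17 genes had a high or middle signal. C1QB, a chain of the complement starter C1q, read 0.16, 0.40 and 0.37 in SII and -0.33, -0.61 and -0.36 in IPS. It was -0.75 ± 0.15 (adjusted p = 0.390), -0.66 ± 0.15 in trained animals, and negative within each of the 4 animals, from -0.98 to -0.59. LYVE1, a marker of perivascular macrophages, was -1.31 ± 0.49 in 3 low signal probe sets that shared a sign in controls. Within the 4 animals it lay between -1.71 and -1.20, and without SII control array 2 it was -0.86. Over all trained arrays its 3 probe sets were split, at -0.55, -1.84 and 0.23. CSF1R, the receptor that microglia need to survive, was -0.55 ± 0.24 and -0.61 ± 0.24 in trained animals, and TYROBP, a signalling adaptor of myeloid cells, -0.44 ± 0.22. F13A1 was the member higher in IPS, at 0.21 ± 0.23. CD53, named above and not a member of the list, went the other way. With the actin covariate 15 of 17 members lay lower, with a median of -0.37; in trained animals it was 13, with a median of -0.20.

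Excitatory neuron genes stood lower in IPS for 6 of 8 members, median -0.34, and 3 of the 6 had an unadjusted p under 0.05. SLC17A7, the main vesicular glutamate transporter of cortex, read 0.87, 0.32 and 0.58 in SII and -0.48, -0.40 and -0.74 in IPS, -1.11 ± 0.38, and -0.66 ± 0.38 in trained animals. BHLHE22, a transcription factor of cortical projection neurons, was -1.52 ± 0.53 and -0.75 ± 0.53 in controls and trained animals. NRGN, a postsynaptic calmodulin-binding protein, read 1.38, 0.06 and 0.32 in SII and -0.42, -0.31 and -0.44 in IPS, -0.95 ± 0.41 (trained -0.47 ± 0.41). Its difference was -0.58 without SII control array 1, the highest of the 6. GABA neuron genes leaned slightly to IPS, 7 of 11 with a median of 0.11, but the lowest p belonged to the peptide NPY, -1.07 ± 0.37 (trained -0.77 ± 0.37), and the calcium buffer PVALB was -0.60 ± 0.44. PVALB read 1.60, 0.08 and -0.08 in SII and -0.53, -0.03 and 0.26 in IPS, so the regions overlapped, and without SII control array 1 its difference was -0.11.

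The layer lists were mixed. TOX, listed for deep layers, read -0.94, -0.19 and -0.15 in SII and 0.30, 0.24 and 0.34 in IPS, 0.70 ± 0.25, with 0.74 ± 0.25 in trained animals and both probe sets of 1 sign. SYT6 and FEZF2, of deep layer neurons, lay lower at -0.85 ± 0.30 and -0.74 ± 0.31. Without SII control array 1, TOX was 0.46 and SYT6 -0.56. The upper layer list had a median of 0.00, with a sign that turned negative under both other scalings; in it the protocadherin PCDH8 was 0.55 ± 0.17 higher and CUX1 -0.95 ± 0.46. Layer IV, which is thick in sensory areas, was covered by RORB at 0.24 ± 0.51 and RSPO1 at 0.85 ± 0.64 alone, which leaves it unread.

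Genes of primary sensory areas and large projection neurons differed among themselves in sign. NEFH, the heavy neurofilament of large axons, read -0.01, -0.34 and -0.39 in SII and 0.01, 0.63 and 0.88 in IPS, 0.75 ± 0.24 (adjusted p = 0.477). It was 1.07 ± 0.24 in trained animals, and higher in IPS within each of the 4 animals, by 0.35 to 1.23. KCNA1, a potassium channel of fast-firing axons from the same list, went the other way at -2.14 ± 0.77 (trained -0.40 ± 0.77), and the list median was -0.31, but 0.29 in trained animals. Area-selective genes of monkey cortex had a median of -0.10 and none under an unadjusted p of 0.05, with HTR2A at -0.66 ± 0.32 and SLIT1 at -0.88 ± 0.44. The 16 patterning factors also had none, median -0.02, with EMX2 at -0.39 ± 0.21 and LMO4 at -0.33 ± 0.20, the mean of -0.71 at middle and 0.06 at high signal. Retinoic acid genes had a median of 0.08, led by the synthetic enzyme ALDH1A3 at 0.48 ± 0.18, of low signal, and the receptor RARA at 0.45 ± 0.21. The RARA value is the mean of 1.39 at low signal and of values from 0.13 to 0.29 at high or middle signal.

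Axon guidance genes lay lower in IPS for 22 of 31 members, median -0.24, with 3 lower and 1 higher at an unadjusted p under 0.05. ROBO2, a receptor of the Slit repellents, read 0.82, 0.19 and 0.65 in SII and -0.77, -0.63 and -0.41 in IPS, -1.15 ± 0.33. It was -0.77 ± 0.33 in trained animals, -1.39 within 334M and near 0 within 348M, and -1.55 ± 0.27 with the actin covariate. The ephrin receptors EPHB1 and EPHA6 were -1.05 ± 0.35 and -1.13 ± 0.49, whereas EPHA3 was 0.64 ± 0.25. The 3 probe sets of EPHB1 were split, at -2.47, -0.78 and 0.06, and EPHA6 was -0.58 without IPS control array 1 and -1.74 without IPS control array 2. The ephrin receptors therefore differed among themselves in sign. Cadherins had a median of 0.01, which turned to -0.00 when arrays were centred on their medians; besides PCDH8, CDH7 stood at -2.73 ± 1.14.

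The GABA receptor and presynaptic lists leaned to SII. GABA receptors had the lowest median of the lists drawn, -0.62, with 6 of 7 members lower and 2 with an unadjusted p under 0.05. GABRA3 read 0.82, 0.38 and 0.60 in SII and -0.42, -0.57 and -0.27 in IPS, -1.02 ± 0.28, and was -1.06 within 348M and 0.06 within 334M. GABRA4, the other subunit under 0.05, was -0.70 ± 0.29 (-0.44 without SII control array 3) and -0.40 ± 0.29 in trained animals. Of 14 presynaptic release genes 10 lay lower, median -0.23, and 5 had an unadjusted p under 0.05, all lower. The calcium sensor relative SYT17 was -0.84 ± 0.24 (trained -0.73 ± 0.24, and -0.78 and -0.70 within 334M and 348M) and the vesicle protein SYN2 -0.46 ± 0.15 in 3 probe sets of 1 sign. Glutamate receptors were mixed: 5 of 8 lay lower with a median of -0.22, which was -0.07 with the actin covariate and 0.05 in trained animals, where 3 of the 8 kept their sign. GRIA1 stood at -0.48 ± 0.18 and GRIK1 at 0.49 ± 0.21. Of the receptors for monoamines and acetylcholine 17 of 25 lay lower, led by CHRM3 at -1.04 ± 0.28 and HTR3A at -1.15 ± 0.35, which stood at -0.26 and -0.04 in trained animals.

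The ion channel lists held genes of both signs. SCN3B, a sodium channel beta subunit, read 0.40, 0.42 and 0.62 in SII and -0.33, -0.10 and -0.56 in IPS, -0.81 ± 0.20 (adjusted p = 0.447). All 3 of its probe sets shared the sign, the trained animals gave -0.69 ± 0.20, and each of the 4 animals was negative, from -1.06 to -0.26. SCN2A was -0.68 ± 0.25, but -0.15 in trained animals, and its probe sets parted, at -1.41 with middle and 0.05 with high signal. Among 32 potassium and HCN channel genes 22 lay lower, median -0.11, with 4 lower and 3 higher at an unadjusted p under 0.05. KCNS2, a modifier of delayed rectifier channels, was 0.74 ± 0.22 higher, with probe sets at 0.77 and 0.75. It was positive in all 4 animals, from 0.21 to 0.42, so the group value lay above each of them. The probe set at 0.75 read -1.37 on SII control array 1 and 0.71 on IPS control array 3. On the other control arrays it read between -0.14 and 0.08. HCN3 and KCNN2 were 0.65 ± 0.22 and 0.42 ± 0.18 higher (KCNN2 0.27 without SII control array 1), against -1.27 ± 0.42 for the A-type channel KCND2. Its partners KCNIP1, KCNIP2 and KCNIP3, which tune such channels, were -0.85, -0.68 and -0.85, the same sign as KCND2 in controls. In trained animals KCNIP2 was -0.72 and KCND2 0.14. The middle signal probe sets of KCNIP2, at -1.01, and of KCNIP3, at -0.42 and -0.47, read highest on SII control array 1. Another KCNIP3 probe set, of low signal, was -1.68.

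**Figure D4:**
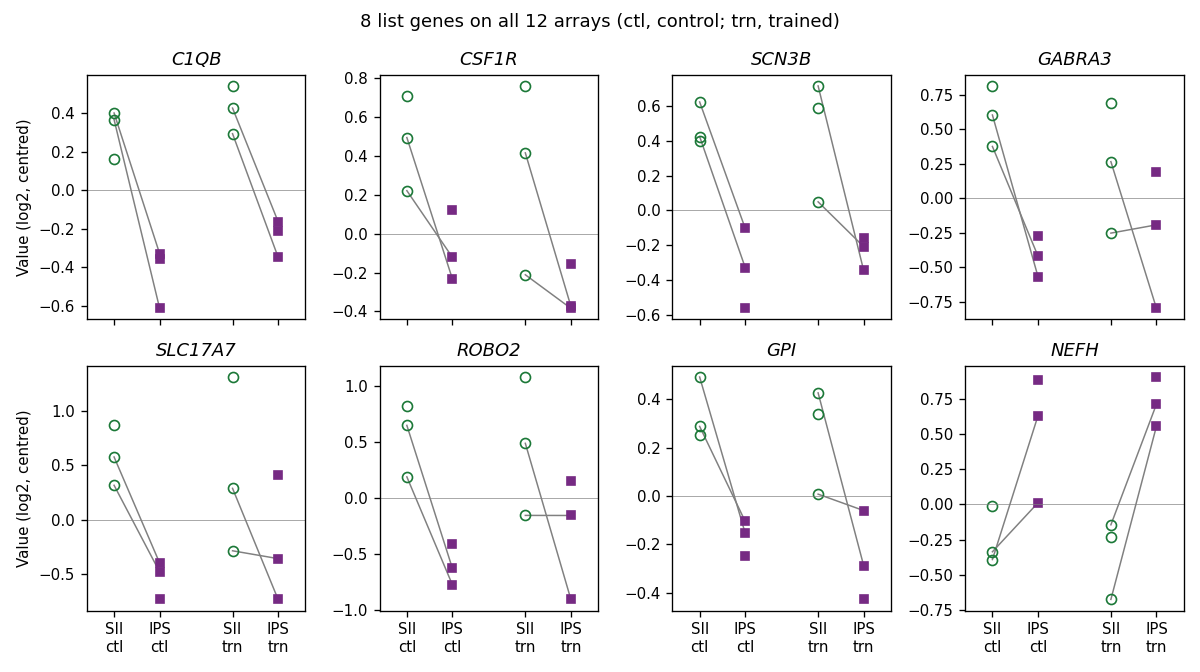
Centred log2 value (y axis) of 8 list genes on the 12 arrays, by region and training (x axis); circles are SII, squares IPS, and grey lines join the 2 arrays of 1 animal. C1QB, CSF1R, SCN3B and NEFH keep 1 direction in all 4 joined animals, while GABRA3 and ROBO2 are flat in 1 trained animal each.

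Glycolysis and hypoxia genes lay lower in IPS for 12 of 14 members, median -0.28, with 3 lower at an unadjusted p under 0.05. PKM, the last enzyme of glycolysis, read 1.28, 0.26 and 0.41 in SII and -1.41, -0.31 and -1.28 in IPS, -1.61 ± 0.52, with 3 probe sets of 1 sign and -0.36 ± 0.52 in trained animals. GPI, at the second step, was -0.51 ± 0.17 in controls and -0.51 ± 0.17 in trained animals, and PFKFB3, which drives glycolytic flux, -1.51 ± 0.54 and -0.26 ± 0.54. The lean of the list as a whole was smaller with the actin covariate, where 8 of 14 lay lower with a median of -0.08, and in trained animals, where 7 did with a median of -0.01. Respiratory chain genes did not share it: 11 of 17 lay lower, median -0.06, none with an unadjusted p under 0.05, with SDHA at 0.36 ± 0.17 and NDUFV1 at -0.60 ± 0.29.

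Among glia, 11 of 13 astrocyte genes lay lower in IPS, median -0.21, but 7 of 13 in trained animals, median -0.02. The factor SOX9 was -2.55 ± 1.01 in a low signal probe set, and the bicarbonate transporter SLC4A4 was 0.50 ± 0.21 higher, the mean of 1.41 and -0.05 at low and 0.15 at middle signal. Oligodendrocyte genes had a median of 0.05, with MBP of myelin at -0.77 ± 0.47 and SOX10 at -0.28 ± 0.32. Precursor genes had a median of -0.03, with PCDH15 at 1.16 ± 0.65 and BCAS1 at 0.35 ± 0.31. None of the oligodendrocyte or precursor genes had an unadjusted p under 0.05.

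Lists of tissue that a block could carry along had medians from -0.20 to 0.16. In trained animals they ran from -0.42 for choroid plexus genes to 0.12 for the T cell and granulocyte list. Whether other tissue was carried along was not tested. Endothelial and pericyte genes had a median of -0.03, with FLT1 at -0.98 ± 0.54 and ABCB1 at 0.30 ± 0.26. Meningeal genes had 9 of 12 lower, median -0.12, with BGN at -0.79 ± 0.24 and ASPN at 0.64 ± 0.35. BGN joins a low signal probe set at -1.89 and a middle signal one at 0.32, so its direction turned, to 0.30, with only high or middle signal; without IPS control array 1 it was -0.51. Choroid plexus genes had a median of -0.02, with FOLR1 at 1.62 ± 0.78 and RSPH1 at -0.23 ± 0.20. HBB and ALAS2, of red blood cells, stood at -0.19 ± 0.54 and 0.23 ± 0.41, both at low signal, and the ALAS2 probe sets parted at 1.05 and -0.55. The T cell and granulocyte list, median 0.16, held NKG7 at 1.85 ± 0.32 (adjusted p = 0.276; trained -0.65 ± 0.32; 1 low signal probe set) and S100A8 at 1.05 ± 0.79. Among markers of neighbouring structures, the striatum list had a median of 0.08, with PPP1R1B at -0.90 ± 0.37 and PDE10A at 0.37 ± 0.32. Hippocampus and amygdala had 0.10, with NOS1 at 1.05 ± 0.86 and ZBTB20 at 0.21 ± 0.19. Claustrum and insula, which lie near SII, had 6 of 9 members lower and a median of -0.20, which moved to 0.03 with the actin covariate. In that list DACH1 was -0.47 ± 0.18, with all 3 probe sets of 1 sign and within-animal values from -0.44 to -0.38 in all 4 animals, and SMYD1 was 0.60 ± 0.48.

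Signals of activity, stress and inflammation were close to 0 in the median. Immediate early genes had a median of -0.00, which turned positive (0.08) under quantile normalization and was -0.18 with the actin covariate; JUND was -0.97 ± 0.36 and KLF2 0.46 ± 0.22, the mean of 0.98 at low and -0.06 at middle signal. Heat shock genes had a median of 0.05, with HSP90AB1 at -0.61 ± 0.23 and GADD45A at 0.88 ± 0.42. The 4 probe sets of HSP90AB1 were uneven, at -1.54, -0.15 and -0.14 with high and -0.63 with low signal. In trained animals they stood, in the same order, at -0.01, 0.30, -0.11 and 0.68. Interferon and inflammation genes had a median of 0.07, with NFKBIA at -0.55 ± 0.39 and IRF7 at 0.50 ± 0.36. Neuropeptides had a median of 0.11, with PNOC at -0.36 ± 0.20 after NPY. Neurotrophins and their receptors had 0.22, with the GDNF receptor RET at -2.73 ± 0.54 (trained 0.29 ± 0.54; 1 low signal probe set, with a floor probe set left out) and its partner GFRA2 at -0.69 ± 0.41.

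**Figure D5:**
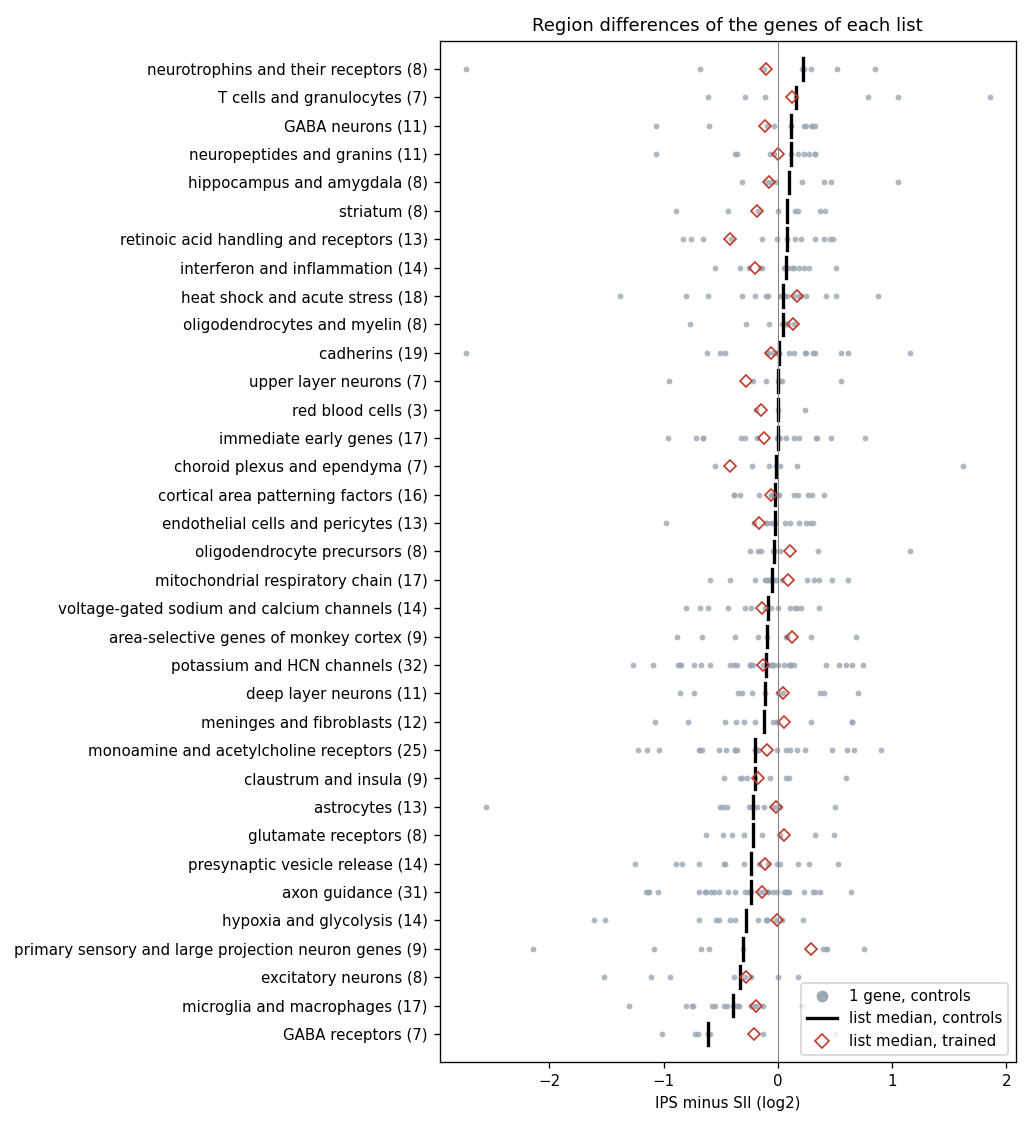
IPS minus SII (log2, x axis) for the genes of each list (y axis, with the number measured); grey points are genes in controls, black bars list medians in controls and red diamonds list medians in trained animals. GABA receptors, microglia and excitatory neurons lie lowest in controls, at -0.62, -0.40 and -0.34, and their trained medians are -0.21, -0.20 and -0.28.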

How the data were processed

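RNA of 12 cortex samples was measured on 12 one-colour arrays. The authors' deposited table holds values taken as log2 (the base was inferred) and centred per probe set; per the submitters' processing notes they used MAS5 (version not given in the sources used here). The floor of each array and the signal before centring were recovered from the spacing of the deposited values; 9898 floor probe sets stayed out of gene means. Of 52865 probe sets, 99 controls were left out, 24956 had 1 gene symbol (1691 of them locus names, left unnamed), 361 several and 27449 none. The platform annotation used for names can be old, and probe sets were not checked by sequence. Groups and animals came from titles and source names. limma 3.58.1 in R 4.3.3 fitted 4 group means over all 12 arrays with animal as a random block (correlation 0.05 over probe sets). The fit was tried on simulated data without the block and without animal correlation, so the block itself was not tested. P-values were adjusted by Benjamini-Hochberg at 5%. Genes were named by the rule given in the text, plus the 2 members of smallest p in each list of 37. Several lists had further members named outside this rule. Of 671 listed genes 425 were measured, and no sex-linked list gene was. Members and lists were chosen with earlier results of these data known. Array number limits the precision. The alternatives were other scalings, samples, blocks, covariates, weights and floors, and each control array left out. Array numbers do not pair the regions (correlations of deviations -0.07 to -0.02 for equal numbers), but 2 animals do (0.09 and 0.13).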

Additional observations from a re-analysis of the deposited data

Results flagged for a closer look

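In 7 named or list genes both control animals with both regions moved one way and both trained animals (334M, then 348M) the other. The list below gives control minus trained region difference. No share over all genes is given beside this count, so it is no result about these 7. The difference itself did not pass for any of them (limma interaction, adjusted p from 0.964 to 1.00). IKBKE differed by 1.79 ± 0.42 (SE): 1.40 and 1.25 within 347M and 354M, -0.36 and -0.43 within the trained pair. NSD3 differed by 1.14 ± 0.30, with 0.58 and 0.89 against -0.15 and -0.58. NOS1, in 1 low signal probe set, had the widest gap of the 7, 3.47 ± 1.22, with 3.06 and 2.38 against -3.04 and -3.10. RARA differed by 0.87 ± 0.30, ASPN by 1.16 ± 0.50, BGN by -0.96 ± 0.34 and HSP90AB1 by -0.82 ± 0.33. The RARA probe sets parted in trained animals, at -1.47 with low, -1.52, 0.01 and 0.58 with middle and 0.25 with high signal. The BGN value rests on its low signal probe set (-1.89 in controls, 0.66 in trained animals), and its middle signal one ran the opposite way (0.32 and -0.33). Over all probe sets 1944 (3.68%) had an unadjusted interaction p under 0.05 and 0 passed 5%. Groups of 3 arrays are too small to test for an array far from the others.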

How the results depend on the processing

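All 30 named genes kept their direction under all 20 alternatives run on probe sets, but since they were chosen for regions that do not overlap, leaving out arrays could hardly turn them, and this is no sign of stability. Counts past 5%, 0 as reported, were 30 probe sets and 19 genes with array weights (SII control 1 weighed 0.52, the other 5 control arrays 0.99 to 1.84), 4 probe sets with quantile normalization, and 1 probe set each with array median centring, only high or middle signal, only male animals and sex as a covariate. Most of the probe sets that passed with array weights or with quantile normalization had a floor or low signal. The 1 probe set with array median centring, only males and sex as a covariate was the same floor probe set, without a gene symbol. With only males, or only the 2 control animals with both regions, 1 gene passed, FGD5. Leaving out 1 control array gave 0 to 1 probe sets and 0 to 1 genes past 5%, FGD5 without SII control 1, and 2782 to 4326 probe sets and 720 to 1199 genes at an unadjusted p under 0.05. That count, 4035 probe sets and 1058 genes as reported, was 2611 and 648 with animal as a fixed block, 2390 and 566 with only the animals with both regions, 7177 and 2026 with array weights, and 6404 and 1794 with the actin covariate. The replicate block, by array number, which does not pair the animals, gave 4050 probe sets and 980 genes, and 0 past 5%. Weak list genes changed sign: RORB was -0.043 with animal fixed or only both-region animals, -0.12 with only males, -0.16 with sex as a covariate and from -0.11 to 0.71 with 1 control array left out (lowest without SII control 1); SOX10 was 0.032 and ALAS2 -0.10 with animal fixed and with only both-region animals; HBB was 0.10 with sex as a covariate and from -0.37 to 0.011 with 1 control array left out (highest without IPS control 1); BGN was 0.30 and KLF2 -0.068 with only high or middle signal; ZBTB20 was -0.010 with the actin covariate. The causes were not tested. A middle signal probe set has a median SE of 0.31, which limits what 3 arrays a region can call.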
